A study of Mus musculus with 4 samples.

Results

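The T cell receptor alpha chain is made from 1 variable segment (Trav) joined to 1 joining segment (Traj), followed by the constant region Trac. All genes in the deposited matrices whose symbol begins with Trav or Traj and a digit were taken, which gave 188 of the 32285 genes listed, 128 Trav and 60 Traj. The choice used names alone and no measured value. All 188 lay on chromosome 14 of GRCm38 (mm10), the Trav segments between 52427928 and 53977678 and the Traj segments, further 3′, between 54155005 and 54218842.

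The T cells called invariant natural killer T (iNKT) cells see lipids presented by CD1d. Most carry the same alpha chain, made in the mouse from Trav11 or its copy Trav11d joined to Traj18. The chain is made in CD4 CD8 double-positive thymocytes, which join Trav and Traj segments again and again, moving to more distant segments on both sides. Joining removes the DNA between the Trav and Traj used, while Traj segments 3′ of the one used remain in the gene between it and Trac and lie in an intron of the transcript. The Trav array of this genome build holds duplicated blocks, whose copies carry the letter d or n in their names.

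The study sequenced thymic cells sorted as CD3 positive and positive for a CD1d tetramer loaded with PBS57, a lipid antigen, from BALB/c mice and from B6 mice, with 2 libraries per strain. The labels give no treatment, allele, age or pooling. They also leave unsaid whether a strain's libraries are from different animals, so p-values measure the spread between these libraries, which may be technical. Libraries were made with a 10x Genomics 5′ kit, in which reads start near the 5′ end of a transcript. Values are UMI counts, numbers of distinct tagged molecules, and were not scaled by gene length.

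The 4 libraries are given throughout in the order BALB/c 1, BALB/c 2, B6 1, B6 2, and sets of 4 values follow it. Filtering left 1864, 1913, 2328 and 8788 cells, with median depths of 11014, 9128, 7003.5 and 6932.5 UMIs. Clusters built without receptor genes were named from markers as iNKT1-like (Tbx21, Nkg7), iNKT2-like (Il4, Zbtb16), iNKT17-like (Il23r), the early iNKT0-like (Egr2, Cd24a), double-positive thymocyte-like (Rag1, Cd8b1) and B-cell-like cells. Of the kept cells 7.51%, 8.73%, 6.66% and 3.41% were double-positive thymocyte-like, so the sorted libraries held cells other than iNKT cells. Clusters with no name held 29.2% of the cells of B6 2 and 3.87% to 11.6% elsewhere. The iNKT1-like class was mostly cluster 5 in BALB/c and clusters 12, 14, 17 and 18 in B6, and the iNKT2-like class mostly cluster 1 (BALB/c) or cluster 2 (B6). Pairs of libraries shared 4 to 33 barcodes. The header of B6 2 names Cell Ranger 7.1.0 and the other 3 headers name 6.0.0, and B6 2 stood apart in several results below, so library and software version cannot be told apart there. By default version 7.1.0 counts reads in introns and version 6.0.0 does not. Which setting was used is not known from the labels or headers, and its part in the values of B6 2 was not tested.

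The sequences set what the counts can separate. Bases 243 to 342 of the transcripts of Trav11 and its copies in GENCODE vM21 are shown because reads that cover the join come from this end, with capitals at a base that differs from Trav11. They lie on the plus strand at chr14:53519759-53519858, chr14:52824813-52824912 and chr14:53135578-53135677.
Trav11: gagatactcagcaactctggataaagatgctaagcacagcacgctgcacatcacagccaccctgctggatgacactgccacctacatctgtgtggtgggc
Trav11d: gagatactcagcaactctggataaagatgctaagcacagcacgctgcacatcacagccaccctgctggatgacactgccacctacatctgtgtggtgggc
Trav11n: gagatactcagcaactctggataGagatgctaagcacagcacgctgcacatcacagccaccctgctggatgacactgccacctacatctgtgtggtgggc

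Over the whole transcript, Trav11 and Trav11d had 0 mismatches in 342 bases compared, so a read that lies within the segment cannot be given to one or the other. Trav11n, annotated as a pseudogene, had 8 mismatches in 343 bases. The same limit touched many members: 39 of the 128 Trav segments had no stretch of 50 bases that was absent from every other Trav transcript, and in the median segment 38.3% of such stretches were its own. Values of single Trav segments are therefore uncertain within families of close copies.

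Traj segments are short, 29 to 72 bases with a median of 61, and differ in sequence. Traj18 is shown with the 3 other Traj segments of highest mean share, in GRCm38 on the plus strand. Capitals mark the conserved joining motif, searched on the coding strand as TTT, TTC or TGG followed by GGNNNNGGN, which 45 of the 60 Traj segments hold (75%).
Traj18 (chr14:54200777-54200842): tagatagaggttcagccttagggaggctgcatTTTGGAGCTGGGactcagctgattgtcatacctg
Traj17 (chr14:54201775-54201837): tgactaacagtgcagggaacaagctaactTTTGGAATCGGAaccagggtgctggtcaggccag
Traj9 (chr14:54209393-54209450): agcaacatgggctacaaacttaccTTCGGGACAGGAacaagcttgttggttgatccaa
Traj24 (chr14:54195638-54195700): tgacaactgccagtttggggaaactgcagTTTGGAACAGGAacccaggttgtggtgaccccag

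Detection was broad and thin. A UMI was seen in at least 1 library for 92 Trav and 52 Traj segments, and 36 Trav and 8 Traj segments were at 0 everywhere. Trav UMIs numbered 4497, 4894, 3629 and 10429. As CPM, UMIs scaled to the library's total over all genes, they stood at 200, 220, 185 and 140. Traj UMIs numbered 809, 901, 1153 and 1857. By comparison Trac, the constant region that every alpha chain carries, stood at 234, 283, 434 and 380 CPM.

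Traj18 was nearly the sole joining segment seen in 3 of the 4 libraries. It held 97.3% of Traj UMIs in BALB/c 1 (787 UMIs), 96.0% in BALB/c 2 (865 UMIs) and 97.1% in B6 1 (1120 UMIs). In B6 2 it held 49.4% (917 of 1857 UMIs; exact Clopper-Pearson 95% interval 47.1% to 51.7%, which covers counting error only). The level of Traj18 itself was 35, 38.8, 57 and 12.4 CPM, so B6 2 had both the least Traj18 and the most of other Traj. BALB/c averaged 96.6% ± 0.902 (SD, n = 2) and B6 73.3% ± 33.8 (SD, n = 2), and an exact two-sided permutation test over the 4 libraries gave p = 0.667, where 2 against 2 cannot go below 0.333. Without B6 2 the strain difference turned from 23.4 to -0.495 percentage points. Other Traj were thinly counted even in double-positive thymocyte-like cells, which had 437, 587, 366 and 775 Trav UMIs but 0, 9, 5 and 50 Traj UMIs. The Traj18 share of Traj UMIs is therefore not the share of alpha chains that use Traj18.

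The other Traj UMIs were placed along the locus relative to Traj18, with 43 segments on its 5′ side and 16 on its 3′ side. BALB/c 1 had 21 UMIs on the 5′ side and 1 on the 3′ side. BALB/c 2 had 34 and 2. B6 1 had 20 and 13, and B6 2 had 409 and 531. The 3′ side thus held 4.55% and 5.56% of the other Traj UMIs in BALB/c 1 and BALB/c 2, 39.4% in B6 1 and 56.5% in B6 2, and the first 3 shares rest on 36 UMIs or fewer each. In B6 2, 34 of the 43 segments on the 5′ side and 13 of the 16 on the 3′ side had a UMI, against 8 to 13 and 1 to 7 in the other 3 libraries.

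**Figure D1:**
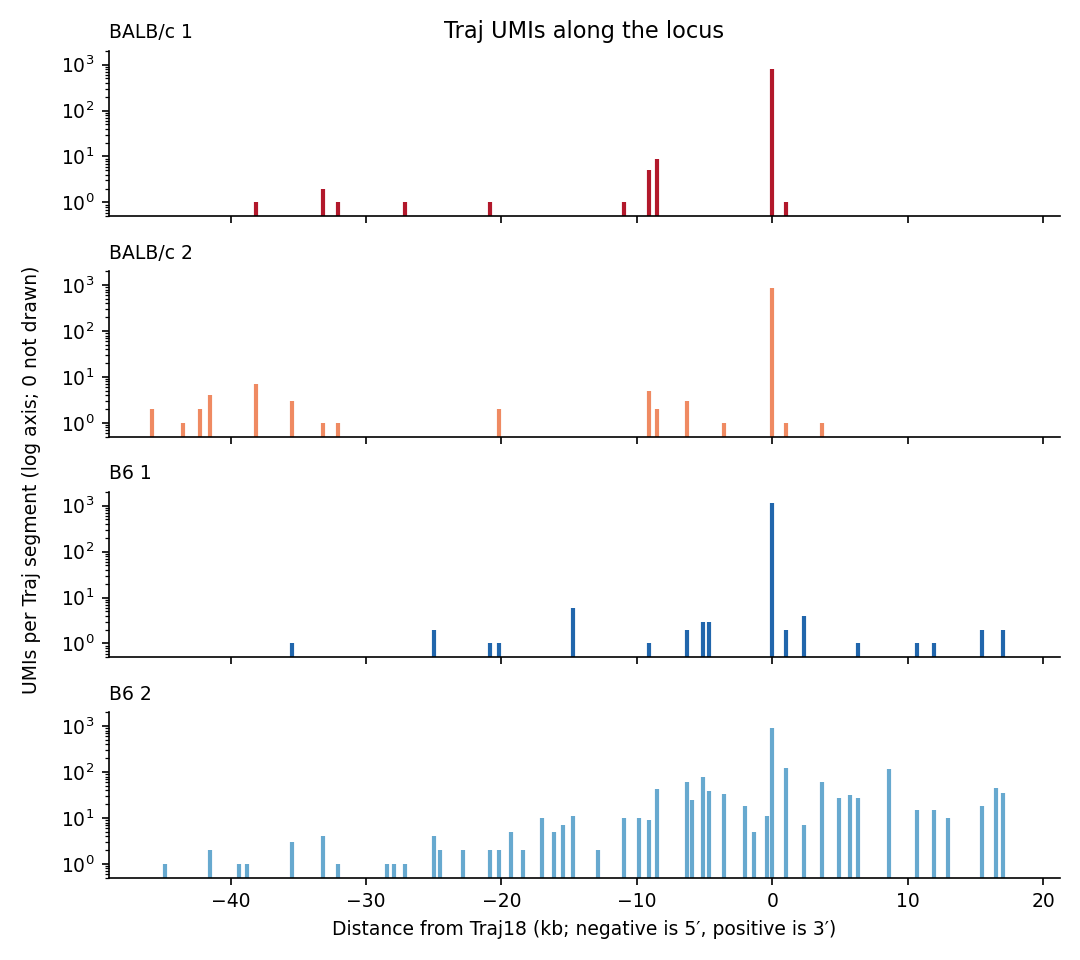
UMIs per Traj segment (log axis) against distance from Traj18 in kb, 1 panel per library, with bars for segments that had a UMI. Traj18 is the tall bar at 0 in each panel, and B6 2 has bars across the locus with 531 UMIs on the 3′ side against 1, 2 and 13 in BALB/c 1, BALB/c 2 and B6 1.

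Among single other Traj segments, Traj17 had 1, 1, 2 and 124 UMIs. Traj9 had 115 UMIs in B6 2 and none in the other 3 libraries. Traj24 had 0, 0, 3 and 77 UMIs. The next 7 by mean share were Traj26, Traj27, Traj15, Traj3, Traj23, Traj2 and Traj22, each with 33 to 61 UMIs in B6 2 and 0 to 9 in any other library. Traj33, which the invariant chain of mucosal-associated invariant T cells joins to Trav1, had 7 UMIs in all, each in B6 2, and no cell held both Trav1 and Traj33.

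Cells with another Traj were also counted against cells with Traj18. Outside the double-positive thymocyte-like and B-cell-like classes, 851 cells of B6 2 had a Traj18 UMI, 794 had another Traj and 83 had both. Another Traj was thus seen in 9.75% of the cells with Traj18 and in 9.36% of all these cells, so the counts of B6 2 show neither a separation nor a joint presence. In the other 3 libraries 19 to 25 cells had another Traj, and 6 to 16 cells had both. In B6 2 the other Traj UMIs did not sit in 1 class. The 300 double-positive thymocyte-like cells held 49 of them, the 167 iNKT0-like cells 27, and the 8320 other kept cells 864. The first 2 classes thus held more of them per cell, at lower median depths (2651.5 and 4356 UMIs, against 6932.5 over all kept cells).

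Cells with Traj18 were found in all 3 mature iNKT-like classes and among proliferating and unnamed cells. In iNKT1-like cells the share with a Traj18 UMI was 34.7%, 37.8%, 41.2% and 10.4%. In iNKT2-like cells it was 40.2%, 39.9%, 46.3% and 13.3%, and in iNKT17-like cells 32.5%, 32.4%, 37.3% and 8.28%. Proliferating cells had 28.6%, 32.5%, 23.8% and 10.8%, and unnamed clusters 24.4%, 36.5%, 22.5% and 8.47%, which in B6 2 is 217 of its 852 cells with Traj18. B6 2 was the low library in each of these classes. iNKT2-like cells were deeper than iNKT1-like cells (median 14539 against 6467 UMIs in BALB/c 1), so their order was read at equal depth. With each cell thinned to 3000 UMIs, iNKT1-like cells stood at 17.5%, 21.5%, 20.7% and 4.78%, iNKT2-like cells at 10.2%, 11.6%, 17.1% and 3.52% and iNKT17-like cells at 8.95%, 14.0%, 10.8% and 2.41%, which puts iNKT1-like above iNKT2-like in all 4 libraries, the reverse of the order at full depth (no test was set for this). At this depth Trac was also seen in more iNKT1-like cells (56.7%, 65.3%, 74.1% and 70.3%) than iNKT2-like cells (48.2%, 53.3%, 67.4% and 62.7%). Its part in the order of Traj18 was not tested. A cell with no Traj18 UMI may still make the chain.

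Early and non-iNKT cells had little or none. In iNKT0-like cells, named from markers of the stage just after selection, the share was 7.92%, 6.50%, 5.32% and 2.40%. How many cells of this class were iNKT cells was not tested. Of 762 double-positive thymocyte-like cells over the 4 libraries 2 had a Traj18 UMI, at a median depth of 2557.5 UMIs. None of 40 B-cell-like cells did at a median of 12704.5 UMIs, which allows a share of cells with a UMI of up to 7.5% by a limit of 3 cells. With every cell thinned to 3000 UMIs, iNKT0-like cells stood at 6.45%, 3.66%, 3.17% and 1.44%. Proliferating cells, which were the deepest, stood lower, at 1.64%, 2.53%, 0% and 1.27%. Against iNKT1-like cells, the highest of the named mature classes at this depth, the share was lower in iNKT0-like cells in 4 of 4 libraries, by a mean of 12.4 percentage points (SD 6.81, n = 4, exact sign-flip permutation p = 0.13, the smallest that 4 pairs allow; 0.188 adjusted over 6 comparisons). This comparison was not among those planned, and the thinned iNKT0-like values rest on 4, 3, 2 and 2 cells with Traj18.

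**Figure D2:**
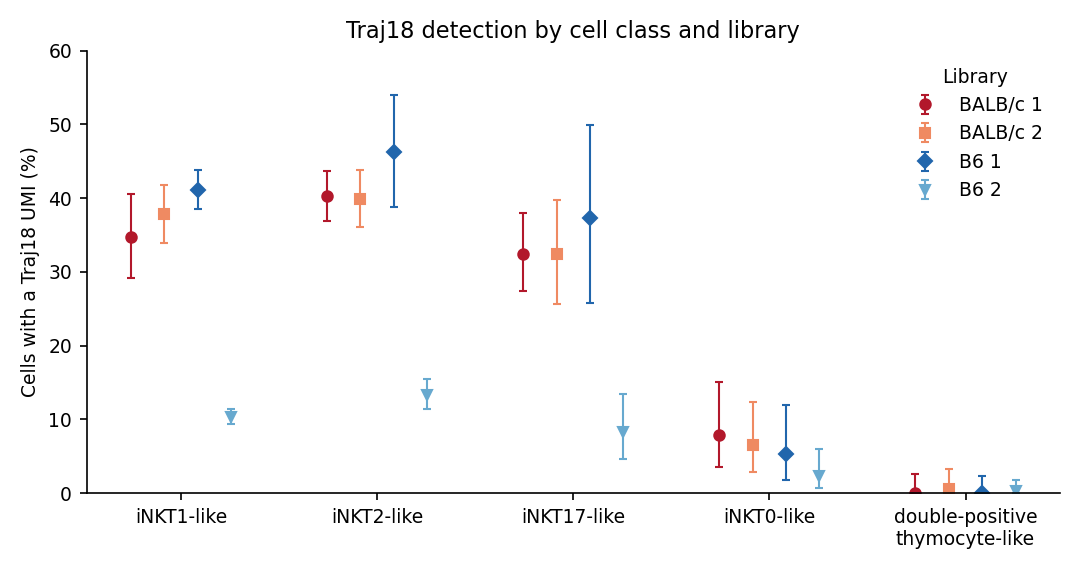
Share of cells with at least 1 Traj18 UMI (vertical axis, percent) by cell class, 1 point per library with its exact 95% binomial interval. The 3 mature iNKT-like classes lie between 32.4% and 46.3% in BALB/c 1, BALB/c 2 and B6 1 and at 8.28% to 13.3% in B6 2, and double-positive thymocyte-like cells lie at or near 0.

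Trav11 was found in more cells than any other Trav segment in each library, but it did not dominate Trav UMIs. It was detected in 14.4%, 15%, 15.3% and 7% of kept cells. The next segment was Trav3-3 in BALB/c 1 (5.85% of cells), Trav7-4 in BALB/c 2 (5.44%) and Trav10 in B6 1 and B6 2 (2.96% and 2.54%). Trav11 and Trav11d together held 8.69%, 8.52%, 14.6% and 7.01% of Trav UMIs, or 391, 417, 531 and 731 UMIs. B6 1 was the highest and B6 2 the lowest, with both BALB/c libraries between them, so the strains overlapped. BALB/c averaged 8.61% ± 0.123 and B6 10.8% ± 5.39 (SD, n = 2 each; exact permutation p = 1). Without B6 1 the difference turned from -2.21 to 1.60 percentage points.

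The gap between cells and UMIs came with few Trav11 UMIs per cell. A cell with Trav11 had on average 1.42, 1.43, 1.45 and 1.16 of its UMIs. The median of the other Trav segments seen in 20 or more cells was 2.20, 2.35, 2.25 and 2.14 UMIs per positive cell. With Trav11 included, 37, 37, 28 and 60 segments were seen in 20 or more cells, and only 5, 6, 2 and 1 of them were below Trav11. Trav3-3, for one, had 3.74, 3.84, 3.35 and 2.73 UMIs per positive cell. Whether the identity of Trav11 and Trav11d, which leaves both with no stretch of 50 bases of their own, has a part in this was not tested.

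Trav11d, the identical copy, had 10, 7, 14 and 18 UMIs, each in a separate cell. It made up 2.56%, 1.68%, 2.64% and 2.46% of the Trav11 plus Trav11d UMIs (BALB/c minus B6 -0.431 percentage points, exact permutation p = 0.667). The pseudogene Trav11n had 39, 23, 28 and 90 UMIs. In both BALB/c libraries each Trav11n UMI was in a cell of its own, while B6 1 and B6 2 had 1.75 and 2.14 UMIs per positive cell.

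**Figure D3:**
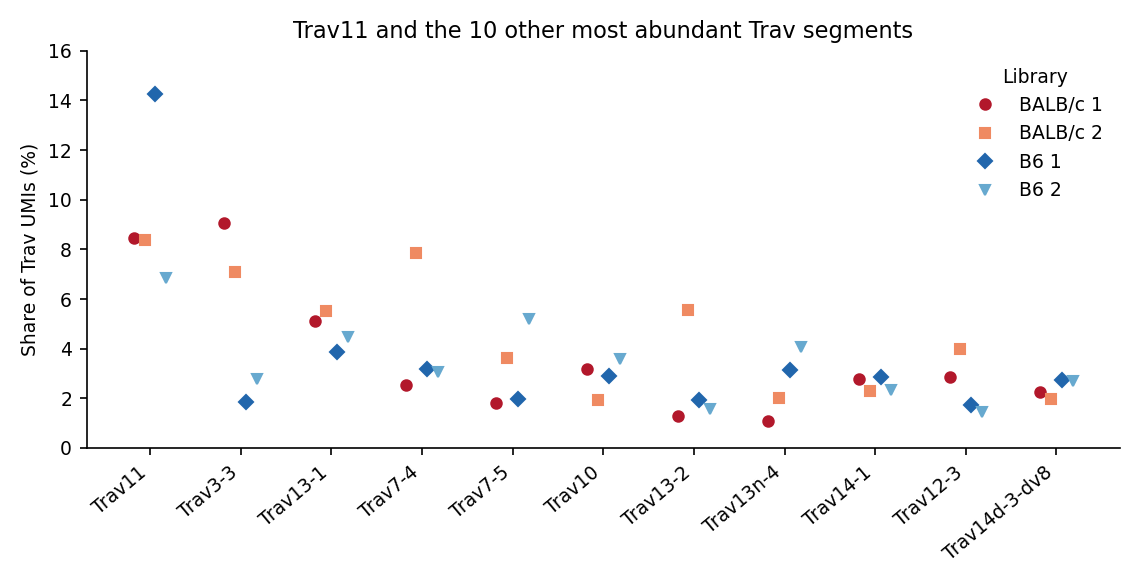
Share of Trav UMIs (vertical axis, percent) for Trav11 and the 10 other Trav segments of highest mean share, 1 point per library. Trav11 is highest in B6 1 (14.2%), while Trav3-3 is above it in BALB/c 1 (9.07% against 8.47%).

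Each cell was then given the Trav segment with most UMIs, counting Trav11 and Trav11d as 1, where at least 2 UMIs lay on it and no other segment tied. This could be done for 704, 734, 605 and 1859 cells. The Trav11 family was the call in 8.66%, 8.17%, 15.4% and 3.39% of them, and B6 1 and B6 2 were the extremes (BALB/c minus B6 -0.961 percentage points, exact permutation p = 1). Without B6 1 the difference was 5.03 points. Since the call needs 2 UMIs and cells with Trav11 had a mean of 1.16 to 1.45, the share is not the share of cells that make the invariant chain.

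Within the mature classes the family was the call in 15.9%, 19.9%, 20.6% and 3.50% of callable iNKT1-like cells. In iNKT2-like cells it was 9.60%, 8.48%, 22.6% and 4.27%, and in iNKT17-like cells 12.5%, 6.25%, 16.7% and 0% (0 of 34 cells in B6 2, which allows a share of up to 8.82% by the same limit). The iNKT1-like share exceeded the iNKT17-like share in 4 of 4 libraries, by 6.10 percentage points (SD 5.02, n = 4, exact sign-flip p = 0.13, adjusted p = 0.188). The iNKT1-like and iNKT2-like shares differed by 3.72 points (SD 6.28, higher in 2 of 4 libraries, exact sign-flip p = 0.5). With a minimum of 1 or 3 UMIs, or each cell thinned to 3000 UMIs, iNKT1-like cells were higher in 4 of 4 libraries, by 5.55, 3.67 and 8.63 points (exact sign-flip p = 0.13 for each). The shares differed between iNKT2-like and iNKT17-like cells by 2.38 points (SD 3.83, higher in 3 of 4, exact sign-flip p = 0.375). In iNKT0-like cells 0 of 63, 1 of 67, 0 of 51 and 1 of 77 callable cells had the family. In double-positive thymocyte-like cells it was 0 of 337 over the 4 libraries.

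The share of cells with a Traj18 UMI was compared between Trav11-family callers and other callers. Thinned to 3000 UMIs, 18%, 28.8%, 20.9% and 6.35% of Trav11-family callers had a Traj18 UMI. Cells with another call had one in 9.32%, 12.4%, 19.8% and 5.09%. The share was higher in family callers in 4 of 4 libraries, by 6.87 points (SD 7.27, n = 4, exact sign-flip p = 0.13, adjusted p = 0.188), with a gap of 8.71 and 16.4 points in the BALB/c libraries and 1.11 and 1.26 in the B6 libraries. With a minimum of 3 UMIs for the call the gap was 12.1 and 26.5 points in BALB/c and turned to -1.15 and -4.94 in B6 (exact sign-flip p = 0.5). At full depth the pairs were 52.5% and 35.3%, 68.3% and 37.2%, 50.5% and 41.8%, and 12.7% and 12%.

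Traj18 was thus also present in cells called by another Trav. Among cells with 2 or more UMIs on the Trav11 family, 31 of 87, 40 of 95, 26 of 116 and 20 of 82 also had 2 or more on another Trav (35.6%, 42.1%, 22.4% and 24.4%). Over all Trav, with double-positive thymocyte-like and B-cell-like cells left out, 13%, 13.4%, 9.77% and 5.01% of the cells with 2 or more UMIs on a segment had that many on at least 2 segments (Trav11 and Trav11d counted as 1). In double-positive thymocyte-like cells these shares were 14.5%, 27.3%, 28.1% and 16.3%, from 69, 88, 57 and 129 cells.

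Other Trav segments were spread over the array, with no single replacement. Outside the double-positive thymocyte-like and B-cell-like classes, cells with another call numbered 575, 588, 455 and 1670 and used 55, 59, 69 and 72 different segments. The top one held 10.1% of them in BALB/c 1 (Trav3-3), 13.8% in BALB/c 2 (Trav7-4), 5.27% in B6 1 (Trav13n-4) and 5.45% in B6 2 (Trav13-1). By share of Trav UMIs, the 10 other Trav of highest mean were Trav3-3, Trav13-1, Trav7-4, Trav7-5, Trav10, Trav13-2, Trav13n-4, Trav14-1, Trav12-3 and Trav14d-3-dv8. By UMIs, Trav7-4 and Trav13-2 were high in BALB/c 2 alone (7.85% and 5.56% of Trav UMIs, against 2.54% to 3.17% and 1.29% to 1.93% elsewhere). The 272 Trav13-2 UMIs of BALB/c 2 lay in 24 cells, against 58 UMIs in 21 cells in BALB/c 1. Trav7-4 was found in 104 cells of BALB/c 2 and 45 of BALB/c 1. Trav13-1 was even, at 5.11%, 5.52%, 3.86% and 4.49%.

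The level of other Trav was highest in the early classes. In double-positive thymocyte-like cells it was 1404, 1231, 960 and 923 CPM, and 70.6% of these cells had such a UMI. In iNKT0-like cells it was 906, 782, 904 and 454 CPM. In iNKT1-like cells it was 153, 153, 131 and 117 CPM and in iNKT2-like cells 144, 157, 132 and 113 CPM. Trac differed less between these classes: double-positive thymocyte-like cells had 340, 482, 480 and 274 CPM, iNKT0-like cells 313, 463, 474 and 385, iNKT1-like cells 320, 406, 510 and 426 and iNKT2-like cells 231, 259, 428 and 333. From double-positive thymocyte-like to iNKT0-like to iNKT1-like cells the values step down in BALB/c 2 but not in the other 3 libraries. As a background, 5% of B-cell-like cells (2 of 40) had an other Trav UMI, against 37.6% to 45.6% of iNKT1-like cells, which were shallower (median 6467 to 7128 UMIs against 12704.5).

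The place of these segments along the array was compared between classes. In double-positive thymocyte-like cells the 35 Trav segments 3′ of Trav11, the closest to Traj, held 59.7%, 67.8%, 65.3% and 62.0% of other Trav UMIs. In iNKT1-like cells they held 43.4%, 40.9%, 31.6% and 41.2%. The share was higher in double-positive thymocyte-like cells in 4 of 4 libraries, by 24.4 points (SD 7.57, n = 4, exact sign-flip p = 0.13, adjusted p = 0.188). This comparison was not among those planned. The iNKT0-like cells lay between these 2 classes, at 50.1%, 57.5%, 51.2% and 48.7%. Among all kept cells the 72 segments between Trav11d and Trav11 held 27.7% and 31.6% in BALB/c 1 and BALB/c 2, and 47.3% and 45.4% in B6 1 and B6 2.

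**Figure D4:**
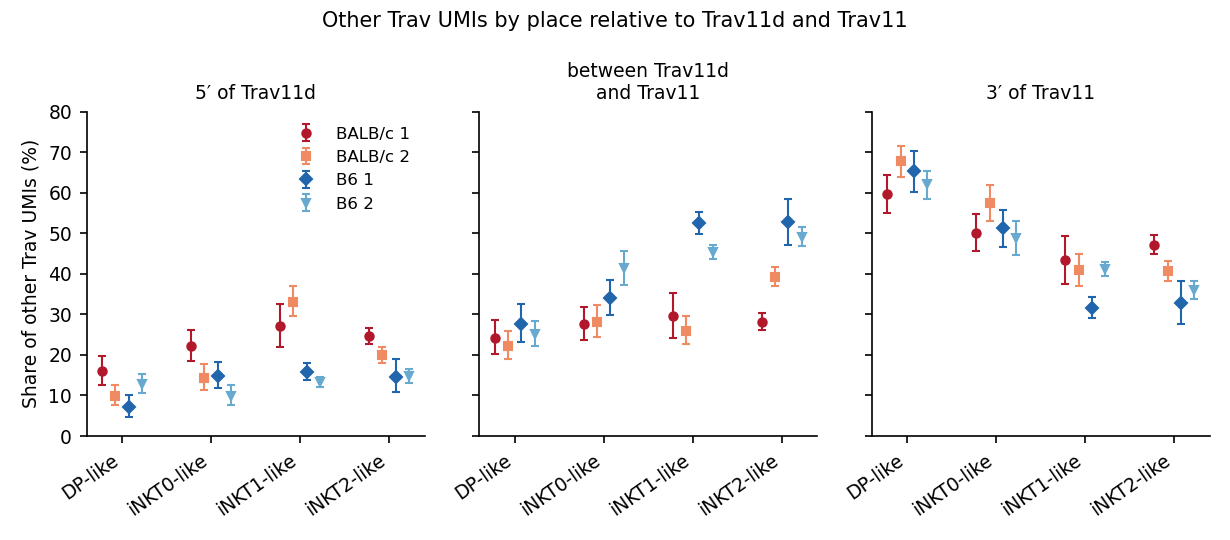
Share of other Trav UMIs (vertical axis, percent) on segments 5′ of Trav11d, between Trav11d and Trav11, and 3′ of Trav11, by cell class (DP-like is double-positive thymocyte-like), 1 point per library with its exact 95% binomial interval over UMIs. The interval treats UMIs of the same cell as independent, so it is too narrow. The 3′ share in double-positive thymocyte-like cells, 59.7% to 67.8%, lies above that of iNKT1-like cells, 31.6% to 43.4%.

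UMI counts were summed per library and the strains compared with edgeR (quasi-likelihood test, Benjamini-Hochberg adjustment over all genes tested). Over all kept cells 952 of 12882 genes were called at an adjusted p under 0.05 (7.39%). Of the 188 members 68 passed the filter on low counts, 67 Trav and 1 Traj, and 9 of these were called, 5 higher in BALB/c and 4 lower (backgrounds of 3.67% and 3.72%). A segment that passes the filter through 1 strain alone has to differ, so the number called among those that passed has no meaning as a rate. The median log2 difference was 0.16 over the members tested and -0.02 over all genes.

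Trav11 and Traj18 were not among the called genes. Trav11 stood at 17.1, 18.8, 26.6 and 9.28 TMM-scaled CPM (TMM is edgeR's scaling between libraries; log2 difference of BALB/c from B6 0.02, SE 0.52, adjusted p = 0.981 by edgeR). Traj18 stood at 35.3, 39.7, 57.6 and 11.9 (log2 difference 0.13, SE 0.74, adjusted p = 0.928 by edgeR). For both genes the B6 libraries lay on either side of BALB/c. Without B6 2 both were lower in BALB/c, with log2 differences of -0.56 (adjusted p = 0.0328) and -0.62 (adjusted p = 0.0226), and without B6 1 both were higher, with 0.96 (adjusted p = 0.00500) and 1.66 (adjusted p = 0.00104). In these edgeR fits the lone B6 library is assumed to vary like the BALB/c pair. Trav11d did not pass the filter.

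The 5 segments higher in BALB/c were Trav3-3 and 4 d copies. Trav3-3 stood at 18.3 and 15.9 TMM-scaled CPM in BALB/c, against 3.45 and 3.76 for B6 (log2 difference 2.24, SE 0.16, adjusted p = 0.0141 by edgeR). Trav8d-1 stood at 8.21 and 6.74 against 1.90 and 0.990 (log2 difference 2.42, SE 0.39, adjusted p = 0.0429 by edgeR). Trav9d-1 had 39 and 41 UMIs in BALB/c, against 3 and 4 for B6, and passed the filter through BALB/c alone. Trav7d-4 (log2 difference 1.88, adjusted p = 0.0488) and Trav7d-3 (2.07, adjusted p = 0.0492) were close to the threshold. In none of the 5 did the strains overlap, which adds nothing, since the call chose them for their difference.

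The 4 segments lower in BALB/c were at or near 0 there. Trav13n-1 had 0 UMIs in both BALB/c libraries and 74 and 180 in B6 1 and B6 2, which is at least 40.3-fold lower when 3 UMIs over both BALB/c libraries are taken as the floor. Trav7n-4 had 0 UMIs in BALB/c and 15 and 63 in B6, at least 12.4-fold lower by the same floor. Trav8-1 had 1 UMI in BALB/c and 39 and 278 in B6 (ratio of B6 to BALB/c 151, 95% counting interval 26.9 to 5984). Trav8-2, annotated as a pseudogene, had 1 UMI in BALB/c and 17 and 61 in B6 (ratio 37.2, counting interval 6.48 to 1487). All 4 were detected in both B6 libraries and passed the filter through B6 alone, so their calls are given without a p.

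With BALB/c 1 or BALB/c 2 left out, no gene was called among all kept cells (1386 and 1641 genes at an unadjusted p under 0.05), these 9 included. Without B6 1 the same fit called 5166 genes and 36 members, all 9 among them, and without B6 2 1830 genes and 15 members, 7 of the 9 among them.

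**Figure D5:**
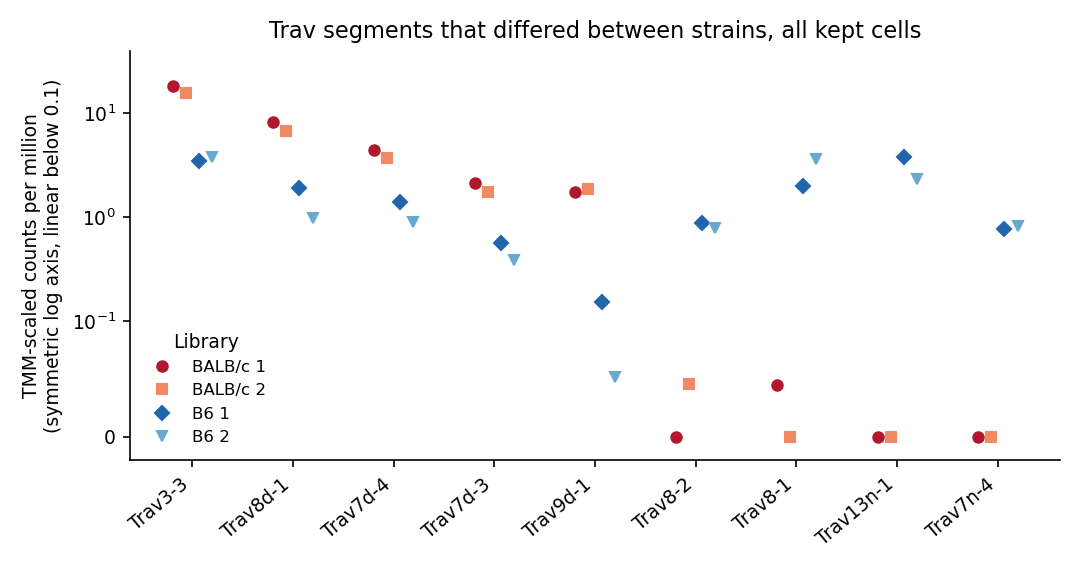
TMM-scaled CPM (symmetric log axis, linear below 0.1) of the 9 Trav segments called between strains in all kept cells, 1 point per library. Trav3-3 and the 4 d copies are higher in both BALB/c libraries, and Trav8-1, Trav8-2, Trav13n-1 and Trav7n-4 had at most 1 UMI in BALB/c.

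By kind of copy, the 34 n copies held 8.25% and 6.56% of Trav UMIs in BALB/c 1 and BALB/c 2 and 17.9% and 18.9% in B6 1 and B6 2. The 39 d copies held 15.5%, 14.1%, 12% and 10.0%. The strains did not overlap in either, though no test was set for this. Some copies were at 0 in 1 strain: 5 Trav segments had 10 or more UMIs in B6 and 0 in BALB/c (2 d copies, 2 n copies and 1 with no letter), and none the reverse. The B6 libraries held 3629 and 10429 Trav UMIs against 4497 and 4894 in BALB/c, which favours segments seen in B6 alone. By the floor of 3 UMIs, Trav13n-1, Trav7n-4, Trav7-6, Trav15d-1-dv6d-1 and Trav9d-4 were at least 40.3-, 12.4-, 8.26-, 3.97- and 3.34-fold lower in BALB/c. Reads were aligned to an assembly of C57BL/6J, and its part in this was not tested.

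Within classes fewer members could be tested. Among iNKT1-like cells 38 members passed the filter and 3 were called (4.01% of all genes), Trav3-3 and Trav8d-1 higher in BALB/c and Trav8-1 lower (2.24% and 1.76% of all genes). Trav8d-1 passed the filter through BALB/c alone and Trav8-1 through B6 alone, so both had to differ. Trav3-3 stood at 15.9 and 17.2 against 3.20 and 2.97 TMM-scaled CPM there (log2 difference 2.43, SE 0.25, adjusted p = 0.00575 by edgeR). Among iNKT2-like cells 45 members passed and 6 were called (11% of all genes), with Trav3-3, Trav9-2, Trav9d-1 and Trav1 higher and Trav13n-1 and Trav8-1 lower (4.74% and 6.25% of all genes). There Trav9d-1 passed through BALB/c alone and Trav13n-1 and Trav8-1 through B6 alone, so they had to differ. Trav1, a segment at the 5′ end of the array, stood at 5.75 and 4.53 against 0 and 1.16 TMM-scaled CPM (log2 difference 2.40, SE 0.52, adjusted p = 0.0378 by edgeR), and over all kept cells its log2 difference was 0.13 (adjusted p = 0.875). Among iNKT17-like cells 11 members passed and Trav14-1 alone was called, higher in BALB/c (5.03% of all genes, 2.47% higher and 2.56% lower), at 9.39 and 6.45 against 0 and 0.464 TMM-scaled CPM, and it passed the filter through BALB/c alone. Leaving out BALB/c 1 or BALB/c 2 ended each of these calls, while the log2 difference of Trav3-3 in iNKT1-like cells was then 2.50 or 2.36 (adjusted p = 0.0625 and 0.149 by edgeR), and DESeq2 or leaving out B6 2 ended that of Trav14-1. Without B6 2, 3 of the 6 members called among iNKT2-like cells remained called.

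The genes that build and carry the receptor were read from lists. Of the TCR and CD3 chains (Trac, Trbc1, Trbc2, Cd3e and 4 others) none of 8 passed between strains over all kept cells, with a median log2 difference of 0.05. Trac stood at 235, 289, 439 and 367 TMM-scaled CPM (log2 difference -0.62, SE 0.15, adjusted p = 0.0864 by edgeR). Of 12 recombination genes none passed (median log2 difference -0.13), with Rag1 at 20.3, 19.9, 43.2 and 18.6 and Dntt, which adds bases at the joins, at 27.0, 46.5, 61.8 and 25.5. Summed double-positive thymocyte markers stood at 216, 372, 419 and 208 CPM, all 10 of 10 above 0. Their part in the strain results was not tested.

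Of 6 factors known to let double-positive thymocytes reach distant Traj segments, 2 were higher in BALB/c. Myb stood at 78.4 and 74.2 against 48.4 and 40.7 TMM-scaled CPM (log2 difference 0.78, SE 0.12, adjusted p = 0.0382 by edgeR). Within classes Myb had log2 differences of -0.05 (iNKT1-like), 0.01 (iNKT2-like) and 0.62 (iNKT17-like; adjusted p = 0.986, 0.960 and 0.128 by edgeR), at 1.98 to 3.41 TMM-scaled CPM in iNKT1-like and 65.1 to 70.6 in iNKT2-like cells. Tcf7 stood at 472 and 484 against 290 and 226 (log2 difference 0.89, SE 0.14, adjusted p = 0.0413 by edgeR). Within these classes, in the same order, Tcf7 had 0.95, 0.40 and -0.07 (adjusted p = 0.00957, 0.0940 and 0.857 by edgeR). Tcf12 had a log2 difference of -1.09 and did not pass (adjusted p = 0.181). Of 4 gamma and delta chain constant genes Tcrg-C4 was higher in BALB/c (log2 difference 0.93, SE 0.08, adjusted p = 0.0169 by edgeR). Of 8 iNKT lineage genes Cd4 was higher (log2 difference 0.82), and Tbx21 and Il2rb, both iNKT1 genes, were lower (-2.07 and -1.54), beside iNKT1-like shares of 15.3% and 31.9% in BALB/c against 57.9% and 42.7% in B6.

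To see which cells held other segments, cells with another Trav call were compared with Trav11-family callers across all genes, with the library as a block and double-positive thymocyte-like and B-cell-like cells left out. There were 61, 60, 93 and 63 family callers. Trav genes chose the cells, so Trav and Traj genes were fitted with the rest but are left out of these counts. Outside them 37 genes were higher in cells with another call and 18 lower, of 10391 (0.356% and 0.173%, 0.529% in all). The higher genes included both CD8 chains, Dntt, Mki67 and 5 beta chain variable segments, and the lower ones Nkg7, Gzmb and the natural killer receptor genes Klrd1 and Klrc1.

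Cd8b1, a chain of the CD8 co-receptor, stood at 37.6, 79.3, 76.2 and 26.8 TMM-scaled CPM in cells with another call and at 2.29, 0, 2.02 and 10.5 in family callers (log2 difference 3.97, SE 0.41, adjusted p = 4.5e-05 by edgeR). Cd8a, the other chain, followed it (log2 difference 3.42, SE 0.44, adjusted p = 0.000782 by edgeR). Dntt, the 1 recombination gene of 11 tested that passed, stood at 18.6, 34.2, 19.6 and 16.3 against 0, 1.55, 0 and 1.5 (log2 difference 5.05). Dntt passed the filter on low counts through cells with another call alone, so it had to differ. Rag1 was at 2.33, 5.40, 6.95 and 4.60 against 1.14, 0, 1.01 and 3 (adjusted p = 0.291). Genes known from cell division that were higher were Mki67, Rrm2, Knl1, Tacc3, the histone gene Hist1h1a and Uhrf1, with log2 differences of 1.40, 1.38, 1.96, 1.33, 1.70 and 1.43. Marcksl1, a regulator of the actin skeleton, had 1.41.

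The beta chain segments were Trbv16, Trbv2, Trbv3, Trbv17 and Trbv31, 5 of 21 tested, with log2 differences of 4.58, 3.47, 2.91, 2.76 and 1.41. Trbv16 stood at 14.7, 26.9, 33.9 and 14.7 TMM-scaled CPM in cells with another call and at 1.14, 0, 1.01 and 1.5 in family callers (SE 0.45). Trbv16 and Trbv2 passed the filter on low counts through cells with another call alone, so they had to differ and are given without a p. The beta segments most used by mouse iNKT cells did not pass: Trbv13-2 had a log2 difference of -0.11, Trbv29 of -0.01 and Trbv1 of 0.05 (adjusted p = 0.761, 1.000 and 0.960). Zbtb16, which encodes PLZF, the factor that sets the iNKT programme, stood at 407, 376, 206 and 414 against 483, 314, 200 and 357 (log2 difference 0.06, SE 0.09, adjusted p = 0.916).

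Family callers were higher for Nkg7, Klrd1, Klrc1, Gzmb and Xcl1, genes of natural killer receptors, cytotoxic granules and a chemokine. Nkg7 stood at 96, 206, 780 and 728 TMM-scaled CPM in cells with another call and at 144, 550, 1063 and 983 in family callers (log2 difference -0.71, SE 0.12, adjusted p = 0.00735 by edgeR). Klrd1 and Klrc1 had log2 differences of -0.72 and -0.86, Gzmb of -0.63, the chemokine receptor gene Cxcr3 of -0.59 and Xcl1 of -0.56. Art2b, which has a close paralog in Art2a, Gimap3, AW112010 and the phosphatase gene Dusp1 had -1.02, -0.72, -0.57 and -0.55. Each was lower in 4 of 4 libraries, which the rule for naming genes required. Traj18 had -0.67 (SE 0.19, adjusted p = 0.123).

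The classes in each kind of cell moved with these genes. The iNKT0-like class made up 11%, 11.2%, 11.2% and 4.55% of cells with another call and 0%, 1.67%, 0% and 1.59% of family callers. The iNKT1-like class made up 9.22%, 20.6%, 54.3% and 38.0% against 16.4%, 50%, 68.8% and 36.5%. The 10 double-positive thymocyte markers summed to 112, 243, 233 and 129 CPM, all 10 above 0, against 14.4, 6, 31.2 and 58 CPM with 5, 4, 4 and 8 above 0. The 9 proliferation markers summed to 1616, 2335, 1977 and 1339 against 780, 324, 1596 and 867 CPM.

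With iNKT0-like and proliferating cells also left out, the double-positive thymocyte markers summed to 12, 14.8, 39.1 and 42.5 CPM against 14.4, 4.63, 24.8 and 55.9. The comparison then called 20 genes outside Trav and Traj, 6 higher and 14 lower, of which 14 were among the 55. Cd8b1 (log2 difference 0.73, adjusted p = 0.898), Cd8a, Trbv31, Trbv3, Marcksl1, Tcf7, Tcrg-C4 (log2 difference -0.25, adjusted p = 0.431) and the 6 genes of cell division were no longer called, and Dntt and Trbv2 no longer passed the filter. Trbv16 and Trbv17 remained called, with log2 differences of 2.98 and 2.33 (adjusted p = 0.0226 for Trbv17 by edgeR). Trbv16 is again given without a p. Of the 10 genes named as lower, 8 remained called, with Nkg7 at -0.56 (adjusted p = 0.00520 by edgeR), and Cxcr3 and Xcl1 did not (adjusted p = 0.204 and 0.164).

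Of the fixed lists, the TCR and CD3 chains had none of 7 called (median log2 difference -0.11) and Trac had -0.35 (adjusted p = 0.0670). Tcf7 was higher in cells with another call (log2 difference 0.50, adjusted p = 0.0268 by edgeR), as 1 of 6 factors for distant Traj use, and Tcrg-C4 was lower (-0.42, adjusted p = 0.029 by edgeR), as 1 of 4 gamma and delta chain genes. Cd8a and Cd8b1 were the 2 of 8 iNKT lineage genes that passed. The count of 55 rests on single libraries: without BALB/c 1 the fit called 12 genes, all among the 55, without B6 2 22 genes (16 among the 55) and without B6 1 156 genes (46 among the 55).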

How the data were processed

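Per the labels' protocols, sorted thymic cells were sequenced with a 10x Genomics 5′ kit, 2 libraries from BALB/c and 2 from B6 mice. The authors deposited matrices of whole-number UMI counts per gene and barcode, not normalized, with 20406245 to 82904358 counts per library. Alignment was to mm10, an assembly of C57BL/6J, with Cell Ranger 7.1.0, per the submitters' processing notes. Per the file headers, 3 libraries came from version 6.0.0 and B6 2 alone from 7.1.0. The counting of intron reads, and of reads that match several segments, is not given in the sources.

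A barcode was kept with at least 500 genes, at least 1000 UMIs and at most 10% mitochondrial UMIs, and Scrublet in scanpy 1.11.5 removed the highest doublet scores at 0.8% per 1000 barcodes (33, 34, 50 and 758 barcodes). Kept cells were clustered together (2000 variable genes without receptor genes, 30 components, Leiden resolution 1) and named from markers. After a first clustering was seen, receptor and immunoglobulin genes were left out of the naming and a gap of 0.1 to the second class was asked for, because the main BALB/c cluster high in Il4 had been named gamma-delta T cells. Its 10 leading genes still hold 2 gamma-delta and 2 iNKT2 markers of the fixed lists, and the gamma chain segment Tcrg-V5 outside them.

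Sums of counts per library went into edgeR 4.0.16 (filterByExpr, TMM factors, quasi-likelihood fit and test, Benjamini-Hochberg over all genes), with DESeq2 1.42.0 as an alternative. SEs are the log2 difference divided by the square root of F. On simulated counts of 12882 genes for the comparison of strains in all kept cells, 80 of 100 genes changed 2-fold and 100 of 100 changed 4-fold were recovered. For shares, exact two-sided permutation tests over libraries were used. Sequences and positions came from GENCODE vM21 on GRCm38, in which all 188 symbols matched.

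Named were Trav11, Trav11d, Traj18, the 10 other Trav and Traj of highest mean share, members called between strains, list members called or else the first 4 (fewer are printed where a list is summarised), and for the calls per cell the 10 genes of largest change each way at 20 CPM or more, changed alike in 4 libraries, without Trav, Traj, Klra, H2, sex-linked and predicted genes. The Trbv segments, Zbtb16 and Trav11n were added after their values were seen. The members and lists were chosen with earlier results of these data known. Alternatives were another normalization, tool, filter or call minimum, other cells, a replicate block and each library left out. The values of 1 gene of the fixed lists are not reported here.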

Additional observations from a re-analysis of the deposited data

Results flagged for a closer look

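The difference between iNKT1-like and iNKT2-like cells in the share of callable cells with the Trav11 family went in opposite directions in the strains. In both BALB/c libraries iNKT1-like cells had the higher share, by 6.28 and 11.4 percentage points in BALB/c 1 and BALB/c 2. In both B6 libraries they had the lower share, by -2 and -0.771 points. The difference between the strains was 10.22 points, which 2 libraries against 2 cannot place below an exact permutation p of 0.333. With 1 UMI or 3 UMIs asked for on the top segment, or each cell thinned to 3000 UMIs, iNKT1-like cells had the higher share in 4 of 4 libraries (means of 5.55, 3.67 and 8.63 points, exact sign-flip p = 0.13 for each), so the opposite direction in B6 held with the minimum of 2 UMIs at full depth alone of these 4 settings. The iNKT1-like and iNKT2-like classes are made of different clusters in the strains, and their part in this was not tested.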

How the results depend on the processing

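Shares reversed where 1 library was left out. The strain difference in percentage points, main value first, then its range over the 4 fits without 1 library, was 23.4 (-0.495 without B6 2 to 47.3) for Traj18 of Traj UMIs, -2.21 (-6.02 to 1.60 without B6 1) for the Trav11 family of Trav UMIs, -0.961 (-6.95 to 5.03 without B6 1) for callable cells, and -0.431 (-0.871 to 0.00809 without BALB/c 2) for Trav11d within the family. For Traj18 the log2 difference between strains ran from -0.62 without B6 2 to 1.66 without B6 1 in all kept cells, from -0.12 to 2.34 in iNKT1-like, from -0.69 to 1.94 in iNKT2-like and from -0.11 to 2.39 in iNKT17-like cells, each in the same order. For Trav11 it ran from -0.56 to 0.96, from -0.035 to 1.55 and from -0.73 to 1.44 in the first 3, and was -0.06 in all kept cells without BALB/c 2.

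Counts of genes called between strains ranged, with 1 library left out, from 0 to 5166 in all kept cells, 44 to 3483 in iNKT1-like, 139 to 5546 in iNKT2-like and 135 to 1330 in iNKT17-like cells, against 952, 425, 1253 and 474. DESeq2 called 1756 in all kept cells and 241 in iNKT17-like cells. Without the low-count filter 1297, 2829 and 1112 genes were called in the 3 classes. With the replicate number as a block, 38 genes and 0 members were called in all kept cells (2746 at an unadjusted p under 0.05) and 761 genes in iNKT1-like cells. The numbers share no known source. Same-numbered libraries deviated oppositely (correlation -0.267), and with the numbers crossed 777 genes were called in all kept cells and 600, 963 and 638 in the 3 classes, a pairing chosen after seeing the data.

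Between kinds of Trav call, 55 genes became 21 with DESeq2, 289 without the filter, 171 with at least 3 UMIs per call, 153 with double-positive thymocyte-like cells included, 20 without iNKT0-like and proliferating cells (chosen after seeing the data), and 12 to 156 with 1 library left out. All 55 kept their direction under these, except 1 with 3 UMIs per call and 7 without iNKT0-like and proliferating cells that changed direction or were not tested. Cell numbers limit the class shares: 18 to 112 iNKT17-like and 51 to 77 iNKT0-like cells per library had a call. A call could be made for 62.4%, 54.5%, 54.3% and 46.1% of iNKT0-like cells. In iNKT1-like cells it was 22.1%, 24.7%, 23.1% and 17.5%, so calls favour the iNKT0-like class. With 2 libraries per strain or 4 pairs no permutation p could pass 0.05.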
